A study of Triticum aestivum with 6 samples.

Results

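The short arm of chromosome 4A (4AS) and the long arms of 4B and 4D (4BL and 4DL) carry corresponding genes in bread wheat (Triticum aestivum). Genes were taken from these arms by the arm code in their ID, and FPKM (fragment numbers scaled by transcript length and sequencing depth) was summed over the transcripts of each gene. A gene was kept when both its sum at 4 °C and its sum at 23 °C reached 1 FPKM and the mean of both stayed under 100 FPKM. This gave 2833 genes with 15944 transcripts, out of 7070 gene IDs on the 3 arms and 36956 genes of all 41 arms within the same limits. The members numbered 704 on 4AS, 979 on 4BL and 1150 on 4DL.

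As background, bread wheat is a hexaploid whose A, B and D subgenomes came from related grasses, so that most genes exist as homoeologues, copies on corresponding chromosomes. Chromosome 4A has gone through a pericentric inversion and translocations with other chromosomes, and the segment now called its short arm corresponds to the long arms of 4B and 4D. Wheat leaves adjust to low temperature by broad changes in gene expression, among them those of cold acclimation. Homoeologues are alike in sequence, so reads of one copy can be assigned to another, and the 3 arms are not fully separate measurements.

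The study sequenced leaf RNA of plants kept at 4 °C (3 libraries, labelled 4 weeks) and at 23 °C (3 libraries, labelled 2 weeks). All plants had a 16-hour photoperiod and a light intensity of 120 μmol per square metre and second, and the labels of all libraries name an 18:3 lipid phenotype and 2 weeks of cold. Each temperature had its own growth chamber, so temperature, chamber and labelled weeks cannot be told apart. No cultivar is named in the sources used here, and the labelled leaf tissue could not be checked against marker genes because the IDs have no gene names.

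The authors deposited a single FPKM value per transcript and temperature. No spread between libraries could be computed, no difference below has a replicate check, and no test was made. The differences between arms are likewise descriptions of these values. Fewer cells of a type and less RNA per cell cannot be told apart in leaf RNA.

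More genes of the 3 arms were higher at 4 °C than lower. Of the 2833 genes, 1689 were higher at 4 °C and 1144 were lower, which puts 59.6% on the higher side, against 56.2% of all 36956 genes. The median log2 ratio of FPKM at 4 °C over 23 °C was 0.17 on the 3 arms and 0.10 on the other 38 arms. The arms were shifted in the same direction but by unequal amounts. On 4AS, 62.2% of genes were higher at 4 °C, with a median log2 ratio of 0.20. On 4DL, 59.5% were higher, with a median of 0.18. On 4BL, 57.9% were higher, with a median of 0.14.

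**Figure D1:**
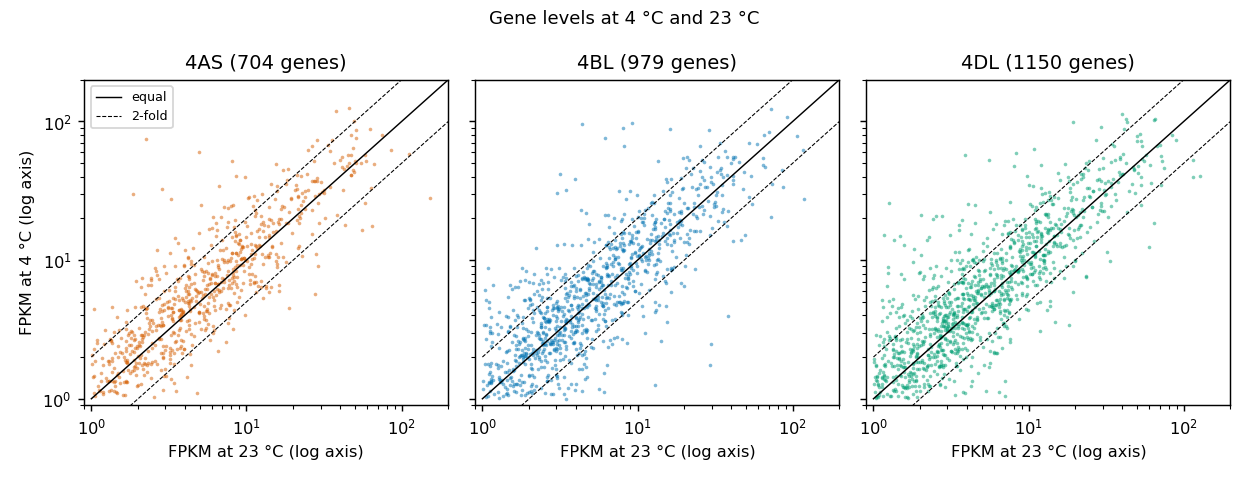
FPKM of each gene at 4 °C (vertical log axis) against FPKM at 23 °C (horizontal log axis) on 4AS, 4BL and 4DL, with 1 point per gene, a solid line of equality and dashed lines at 2-fold. Points lie along the line with more above it than below, 438 of 704 on 4AS, 567 of 979 on 4BL and 684 of 1150 on 4DL.

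The upward direction depended on which scaling of the columns was used. Median-of-ratios scaling, which divides each column by 1 factor, left medians above 0, at 0.11 on 4AS, 0.04 on 4BL and 0.09 on 4DL. It moved the median of all 36956 genes to 0.01 and that of the other arms to 0.006, so that little of the shared upward shift was left. It takes the same amount from every log2 ratio, so the differences in median between arms stay unchanged by construction. After this scaling 53.9% of genes of the 3 arms were higher, against 50.4% on the other arms. Quantile normalization, which forces equal distributions on both temperatures, moved the median of all 36956 genes to -0.06 from 0.11. Over the 3 arms together it put the median at -0.004 and the share of higher genes at 49.5%, against 46.2% on the other arms, so that the upward direction was gone. By arm the median was 0.02 on 4AS, -0.03 on 4BL and 0.005 on 4DL. Relative to the other 38 arms, the medians were higher by 0.08 on 4AS, 0.03 on 4BL and 0.07 on 4DL after this step, against 0.10, 0.04 and 0.08 in the deposited values. All 3 arms were above the others in the deposited values and after quantile normalization. That step maps each whole column in the same way for all arms, so it is no independent check of the difference between arms. The direction of the pooled median and of 4BL did not hold after it.

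Over the 3 arms together, the larger share of higher genes lay mostly in genes higher by less than 2-fold. On the lower side the difference from the other arms was widest for genes at least 2-fold lower, at -1.77 percentage points. It was -1.30 for a log2 ratio between -1 and -0.5, and -0.69 from -0.5 to 0. Genes at least 2-fold higher at 4 °C made up 14.2% of the 3 arms (401 genes), close to the 13.5% among all genes. Genes at least 2-fold lower made up 6.18% (175 genes), below the 7.81% among all genes. Genes higher by less than 2-fold were 45.5% of the 3 arms and 42.4% of the other arms. The arms were not alike in this. Relative to the other arms, the share of genes with a log2 ratio above 0 and up to 0.5 was higher by 5.37 percentage points on 4AS and 0.71 on 4DL, and lower on 4BL by 0.24. For a log2 ratio from 0.5 to under 1 it was higher by 0.66 on 4AS, 1.75 on 4BL and 1.83 on 4DL. For genes at least 2-fold higher it was higher by 0.33 on 4AS, 0.54 on 4BL and 1.07 on 4DL. Among genes past 2-fold, 69.6% were higher at 4 °C on the 3 arms and 63.4% over all genes, and quantile normalization put these shares at 54.9% and 48.0%.

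The arms differed in how many genes were lower. On 4AS, 36 genes (5.11%) were at least 2-fold lower and 97 (13.8%) at least 2-fold higher. On 4DL, 65 genes (5.65%) were lower and 167 (14.5%) higher. On 4BL, 74 genes (7.56%) were lower and 137 (14.0%) higher, so that its share of lower genes lay near the 7.81% of all genes. Only 6AL had a smaller share of lower genes than 4AS, while 4BL ranked 26 of the 41 arms in this share, counted from the largest.

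Percentiles of the log2 ratio placed the difference from other arms mainly in the lower part and middle of the distribution for 4AS. For 4DL it was largest in the lower part but reached to the 75th percentile. At the 25th, 50th and 75th percentiles the difference was 0.16, 0.10 and 0.008 on 4AS, and 0.076, 0.079 and 0.078 on 4DL. The 10th percentile was -0.72 on 4AS and -0.72 on 4DL, against -0.88 on the other 38 arms. The 90th percentile was 1.20 on 4AS and 1.21 on 4DL, against 1.19 on the other arms. At the 95th percentile all 3 arms were lower than the others, by 0.12 on 4AS, 0.09 on 4BL and 0.02 on 4DL. On 4BL, the 10th percentile was -0.89, against -0.88 on the other arms, and the 5th percentile was lower than theirs by 0.08.

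**Figure D2:**
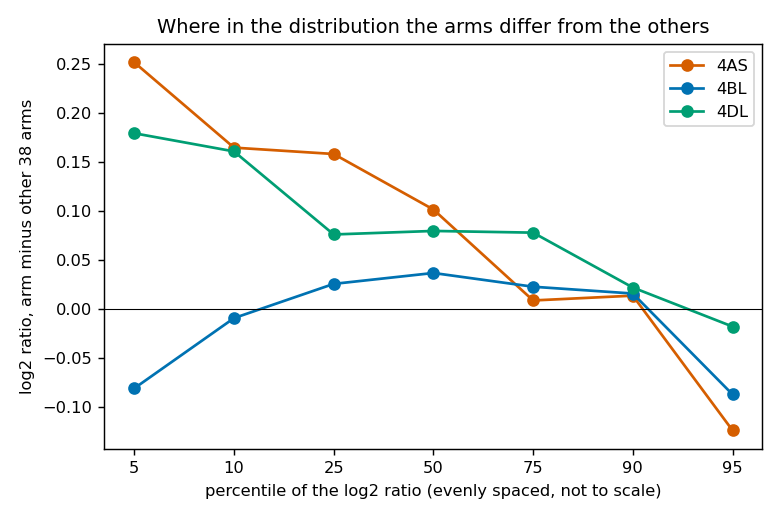
Log2 ratio of FPKM (4 °C over 23 °C) at 7 percentiles, shown as the value of 4AS, 4BL or 4DL minus that of the genes of the other 38 arms. The lines of 4AS and 4DL are highest at the 5th percentile (0.25 and 0.18) and fall to below 0 at the 95th, while the line of 4BL stays between -0.09 and 0.04.

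The mean and the trimmed mean gave the same account. Without the 10% of genes at each end, the mean log2 ratio exceeded that of the other arms by 0.08 on 4AS, 0.03 on 4BL and 0.07 on 4DL. With all genes kept, the excess was 0.08, 0.02 and 0.08. Set against the share of higher genes on the other arms, 55.9%, the 3 arms held 106 more higher genes than that share would give, 45 on 4AS, 20 on 4BL and 42 on 4DL (rounded arm by arm).

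Summed FPKM of the members was 31639 at 4 °C and 26713 at 23 °C, a ratio of 1.18. The ratio of the other arms was 1.19, slightly above that of the 3 arms. The order depended on the most abundant genes. With the limit of 100 FPKM lifted, the ratio was 1.18 on the 3 arms and 1.04 on the other arms. With the top 5% of each arm by mean FPKM left out, it was 1.20 on the 3 arms and 1.15 on the other arms. By arm, the ratio was 1.21 on 4AS, 1.15 on 4BL and 1.19 on 4DL, which ranked 13, 33 and 22 among the 41 arms. After quantile normalization the ratio was under 1 on all 3 arms (0.988 on 4AS, 0.945 on 4BL and 0.973 on 4DL) and was 0.970 on the other arms.

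The 1689 higher genes gained 9188 FPKM in all, and the 1144 lower genes lost 4263 FPKM. Of the gain, 50% was held by the 154 genes that gained most, or 5.44% of the members. By arm this share was 5.68% on 4AS, 5.21% on 4BL and 5.65% on 4DL, against 3.15% to 4.97% on each of the other 38 arms. These were the 3 highest of the 41 arms, but the order did not hold under most other settings. With the limit of 100 FPKM lifted, 4AS ranked 1, 4BL ranked 37 and 4DL ranked 20. The ranks in the same order were 1, 5 and 12 with both sums at 5 FPKM or more, 2, 7 and 1 after median-of-ratios scaling, and 2, 12 and 1 after quantile normalization. They were 2, 10 and 8 over genes with 1 transcript, 1, 4 and 3 over transcripts in place of genes, and 11, 6 and 5 without the 5% most abundant genes. The 3 arms kept the first 3 ranks in 1 alternative, that with a mean of at least 1 FPKM.

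**Figure D3:**
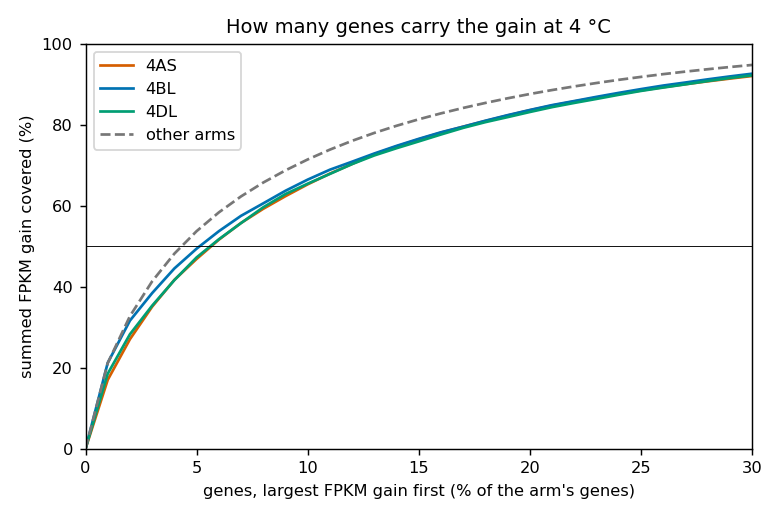
Summed FPKM gain covered (vertical axis, % of the gain of all higher genes) by the genes with the largest gain (horizontal axis, % of the genes of the set), for 4AS, 4BL, 4DL and the pooled genes of the other 38 arms (dashed). The lines of the 3 arms cross 50% between 5.21% and 5.68% of their genes, to the right of the other arms at 4.30%.

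The ratio of sums falls by construction when the genes that gained most are left out, so only the size of the drop is described. A fixed number of genes is also a larger part of 4AS, with 704 members, than of 4BL with 979 or 4DL with 1150. Without the 10 largest gains of each arm it was 1.14 on 4AS, 1.09 on 4BL and 1.14 on 4DL, and without the 50 largest it was 1.01, 0.986 and 1.05. The median log2 ratio without the 50 largest was 0.13 on 4AS, 0.09 on 4BL and 0.14 on 4DL. The net gain of an arm equalled that of its 58 top genes on 4AS (8.24% of its members), its 43 top genes on 4BL (4.39%) and its 80 top genes on 4DL (6.96%).

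The shift relative to other arms was found at low and middle levels. In the class from 1 to under 5 FPKM of mean level, the median log2 ratio was 0.13 on 4AS, 0.06 on 4BL and 0.12 on 4DL, against 0.01 on the other arms. From 5 to under 20 FPKM it was 0.23 on 4AS, 0.22 on 4BL and 0.23 on 4DL, against 0.15 on the other arms. In this class the 3 arms nearly coincided. From 20 to under 100 FPKM it was 0.39 on 4AS and 0.27 on both 4BL and 4DL, against 0.36 on the other arms, so that 4BL and 4DL were lower than the others. This top class held 105 genes of 4AS, 125 of 4BL and 147 of 4DL.

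**Figure D4:**
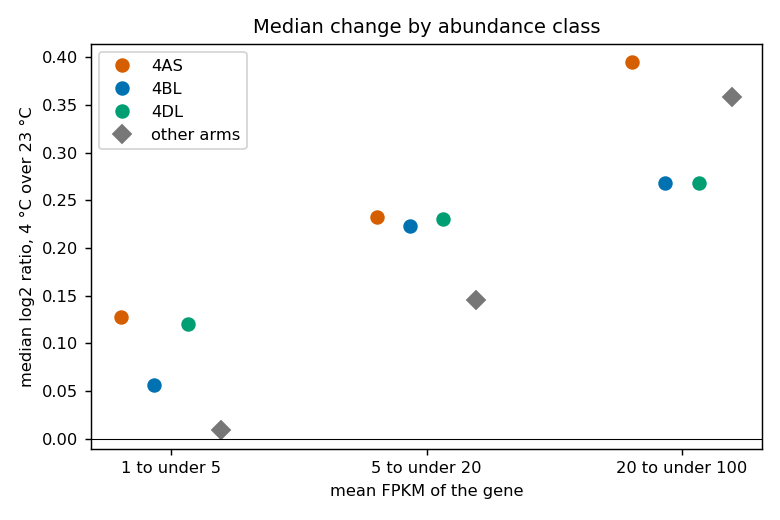
Median log2 ratio of FPKM, 4 °C over 23 °C (vertical axis), in 3 classes of mean FPKM (horizontal axis), for 4AS, 4BL, 4DL (circles) and the other 38 arms together (diamonds). The 3 arms lie above the other arms in the classes from 1 to under 20 FPKM, and in the class from 20 FPKM only 4AS does.

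A stricter limit on low values took most of the difference in medians away on 4AS and 4DL, and less of it on 4BL. With both sums at 5 FPKM or more, 328 genes of 4AS, 404 of 4BL and 470 of 4DL were left. Their medians (0.19 on each of 4AS and 4BL, 0.17 on 4DL) exceeded the 0.16 of the other arms by 0.03, 0.03 and 0.01, against 0.10, 0.04 and 0.08 under the limit of 1 FPKM, and ranked 13, 16 and 24 of the 41 arms. The share of higher genes exceeded that of the other arms by 4.52 percentage points on 4AS and 0.66 on 4BL, and on 4DL the difference was -0.51. Under the limit of 1 FPKM these differences were 6.35 on 4AS, 2.05 on 4BL and 3.61 on 4DL. In this share 4AS thus kept most of its difference, and 4BL and 4DL did not. The limit of 5 FPKM in both conditions also removes genes that changed across it, and the cause of the loss was not tested.

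Among all arms, 4AS ranked 2 and 4DL ranked 3 by median log2 ratio, after 6AL at 0.27, where 202 genes passed the limits. The arm 4BL ranked 13. The other arms ranged from -0.03 on 6DS to 0.27 on 6AL. These ranks did not hold under every setting. For 4AS, 4BL and 4DL they were 13, 16 and 24 with both sums at 5 FPKM or more, and 4, 7 and 27 over genes with 1 transcript. Over transcripts in place of genes they were 4, 17 and 8. Under the remaining settings 4AS stayed at rank 2 and 4DL at 3 or 4. Group 3 was left out of a comparison of corresponding arms because 3B is not split into arms. That comparison was made under the reported limits only. Of the 12 sets of 3 corresponding arms in the other groups, the set of 4AS, 4BL and 4DL had the highest median over its genes, 0.17, and the next was the long arms of group 1 with 0.13. Its lowest arm, 4BL, was above the lowest arm of each of the other 11 sets. Its own arms spanned 0.06, and this span ranked 8 of the 12, counted from the narrowest. The remaining arms of the same chromosomes had medians of 0.15 on 4AL, 0.12 on 4BS and 0.10 on 4DS, each lower than that of the other arm of its chromosome.

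**Figure D5:**
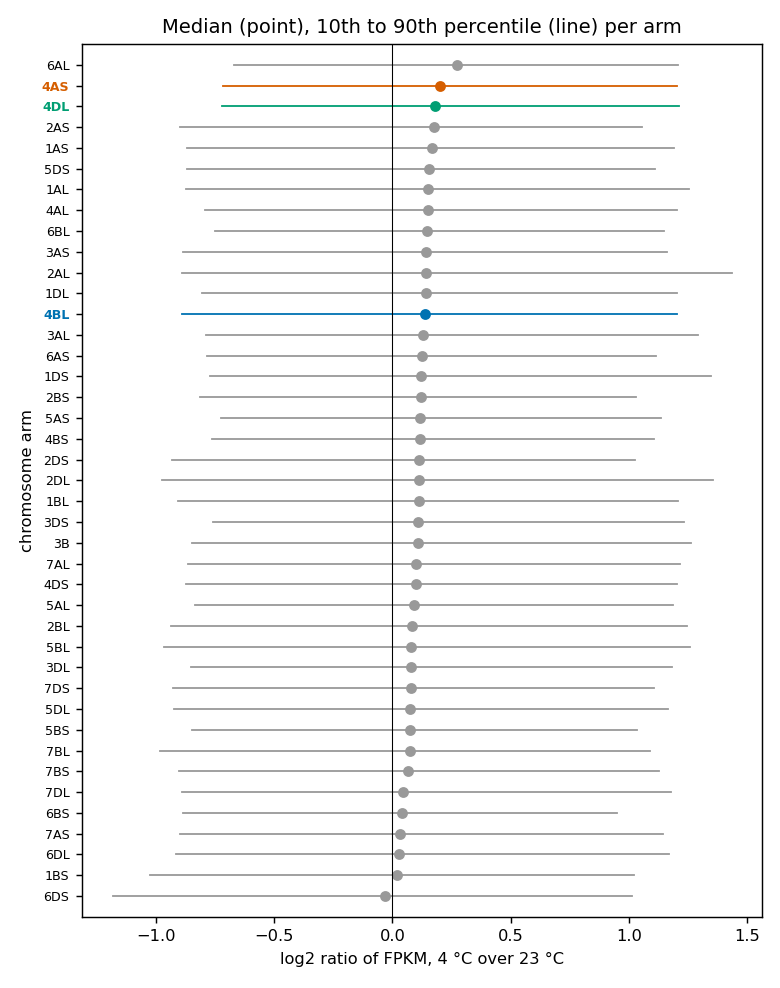
Median log2 ratio of FPKM, 4 °C over 23 °C (points), and range from the 10th to the 90th percentile of genes (lines) for each of the 41 chromosome arms, ordered by median, with 4AS, 4BL and 4DL in colour. Medians of neighbouring arms differ by far less than the spread of genes within an arm, for example 0.20 on 4AS with percentiles of -0.72 and 1.20.

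Within each arm the shift was not held in a short stretch of the table. Members of an arm were put in the order of their transcript numbers and cut into 10 blocks of 70 to 71 genes on 4AS, 97 to 98 on 4BL and 115 on 4DL. The median log2 ratio was above 0 in 9 blocks of 4AS, 8 of 4BL and 10 of 4DL, and above the 0.10 of the other arms in 8 blocks of each. The lowest of the blocks above 0.10 were close to it, at 0.116 on 4AS, 0.114 on 4BL and 0.117 on 4DL. Blocks this close were most frequent on 4BL. Block medians ranged from -0.004 to 0.41 on 4AS, from -0.08 to 0.35 on 4BL and from 0.05 to 0.28 on 4DL. None of the sources used here says whether the order of numbers follows the chromosome.

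Single transcripts and summed genes gave unequal pictures. Genes with 1 transcript, whose value does not depend on dividing reads among isoforms, had medians of 0.29 on 4AS (107 genes), 0.21 on 4BL (232) and 0.12 on 4DL (258), against 0.14 on the other arms. Thus 4DL, which was above the other arms over all its genes, was below them over these. Genes with several transcripts had medians of 0.20 on 4AS, 0.12 on 4BL and 0.18 on 4DL, against 0.09 on the other arms.

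Where a gene had several transcripts with a mean of 1 FPKM or more, these often differed in direction. Of 999 such genes on the 3 arms, 382 had every one of these transcripts higher at 4 °C, 224 had every one lower and 393 were mixed. The shares were 38.2%, 22.4% and 39.3%, against 36.8%, 23.2% and 40.0% on the other arms. Of 961 members with 5 FPKM or more at each temperature and more than 1 transcript, 113 had a different leading transcript at 4 °C than at 23 °C, or 11.8%, against 12.7% on the other arms. By arm this share was 15.4% on 4AS, 11.04% on 4BL and 9.70% on 4DL.

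Large changes were present on each arm. At least 4-fold higher at 4 °C were 77 members and at least 4-fold lower 20, or 2.72% and 0.706%, against 3.15% and 1.39% of all genes. Of the 77, 13 were on 4AS (1.85% of its members), 26 on 4BL (2.66%) and 38 on 4DL (3.30%). Of the 20, 4 were on 4AS, 9 on 4BL and 7 on 4DL. Among 1497 members with a mean of 5 FPKM or more, 24 (1.60%) were at least 8-fold higher, against 1.57% of all such genes, with a median of 32.4 FPKM at 4 °C, against 3.10 FPKM at 23 °C. These were 5 genes on 4AS (1.28%), 9 on 4BL (1.79%) and 10 on 4DL (1.66%). At least 8-fold lower were 4 of the 1497 (0.267%), against 0.581% of all such genes. All 4 were on 4BL, where they made up 0.794% of such genes, with 1.25 to 3.97 FPKM at 4 °C and 12.99 to 38.2 FPKM at 23 °C.

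The largest ratio among these 1497 genes was that of Traes_4AS_9C1CB8D5A, which stood at 74.8 FPKM at 4 °C and at 2.24 FPKM at 23 °C, a ratio of 33.4. Of its 20 transcripts 12 were higher at 4 °C, 3 lower and 5 listed at 0 in both. The transcript that led at 4 °C stood at 44.2 FPKM there and at 0.0904 FPKM at 23 °C. Another transcript led at 23 °C, at 0.166 FPKM in the 4 °C column and 1.68 FPKM in the 23 °C column. Traes_4BL_701AFFB1C followed at 95.6 FPKM at 4 °C, against 4.36 FPKM at 23 °C, a ratio of 21.9. All 3 of its transcripts were higher at 4 °C, and the same one led at both temperatures, at 47.8 FPKM in the 4 °C column and 3.16 FPKM in the 23 °C column. This gene also had the largest gain in FPKM on 4BL, 91.3.

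The lowest ratio was that of Traes_4BL_E7D810D57, a gene with 1 transcript, at 1.76 FPKM at 4 °C, against 29.2 FPKM at 23 °C, or a ratio of 23 °C to 4 °C of 16.6. Traes_4BL_5F08C2BBF was next, at 2.49 FPKM at 4 °C, against 29.7 FPKM at 23 °C, a ratio of 23 °C to 4 °C of 11.9. Of its 3 transcripts 2 were lower at 4 °C and 1 was listed at 0 in both. The deposited table pairs none of these IDs with a name or function.

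By count, genes that the limits left out also leaned to the higher side over the 3 arms together. On the 3 arms, 320 gene IDs (4.53%) reached 1 FPKM at 4 °C alone and 234 (3.31%) at 23 °C alone, against 4.00% and 3.82% of all 99386 gene IDs. By arm these counts were 65 (3.87%) and 47 (2.80%) on 4AS, 125 (4.93%) and 84 (3.31%) on 4BL, and 130 (4.56%) and 103 (3.61%) on 4DL. On 4AS the share at 4 °C alone was thus slightly below that of all gene IDs, and the lean lay in its low share at 23 °C alone. Of the 320, 14 were listed at 0 at 23 °C, and of the 234, 14 were listed at 0 at 4 °C. A further 56 genes with both sums at 1 FPKM or more had a mean of 100 FPKM or more. Of these 37 were higher at 4 °C, or 7 of 7 on 4AS, 15 of 24 on 4BL and 15 of 25 on 4DL, against 58.2% of all 1063 such genes. The shares on 4BL and 4DL were thus near that of all such genes. The ratio of summed FPKM of these genes was 1.52 on 4AS, 1.26 on 4BL and 1.01 on 4DL, against 0.929 on the other arms. The remaining IDs were 1736 that stayed under 1 FPKM at both temperatures, with a value above 0 in at least 1 of them, and 1891 listed at 0 in both.

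Just inside the lower limit was a 4BL gene at 1.34 FPKM at 4 °C, against 1.002 FPKM at 23 °C. Just outside it was a 4DL gene at 0.997 FPKM at 4 °C, against 1.505 FPKM at 23 °C. Just inside the upper limit was a 4BL gene with a mean of 99.6 FPKM, and just outside it one of 4BL with a mean of 100.5 FPKM.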

How the data were processed

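Leaf RNA was sequenced from 3 libraries at 4 °C and 3 at 23 °C. The submitters' processing notes name Cuffdiff 2.1.1, Cufflinks 2.1.1, STAR 2.3.0e, Trimmomatic 0.30 and CASAVA 1.8.2. Their settings, the genome build, the annotation and the way libraries were combined are not stated in any source used here. The authors deposited FPKM for 442311 transcripts, with 1 value per temperature. The deposited columns, named cold and control per the file headers, were taken as 4 °C and 23 °C. Depth is unknown, so no interval or floor is given.

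FPKM was summed per gene with pandas 2.3.3. Ratios are 4 °C over 23 °C with no pseudocount, as both sums are at least 1 FPKM. The planned fall-back on limma needs values per library and was not used. Of the 7070 IDs of the arms, 0 matched the RefSeq gene table of IWGSC CS RefSeq v2.1, so no names, coordinates or sequences are given. Named genes are the 2 highest and 2 lowest ratios among members with a mean of 5 FPKM or more. The steps were tested on simulated data. Members and comparisons were chosen with earlier results of these data known.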

Additional observations from a re-analysis of the deposited data

How the results depend on the processing

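No paired analysis was possible because each temperature has 1 value, and leaving out a library was likewise not possible. Values without a test count as moved when their second decimal differs. Values follow the order 4AS, 4BL, 4DL. The median log2 ratio was 0.20, 0.14 and 0.18 as reported. It was 0.16, 0.11 and 0.14 with a pseudocount of 1 FPKM, 0.19, 0.19 and 0.17 with both sums at 5 FPKM or more, 0.17, 0.13 and 0.16 with a mean of at least 1 FPKM and a pseudocount of 1, and 0.21 on 4AS with no upper limit. It was 0.11, 0.043 and 0.086 after median-of-ratios scaling and 0.019, -0.030 and 0.0049 after quantile normalization. It was 0.29, 0.21 and 0.12 over genes with 1 transcript, 0.195 and 0.165 on 4AS and 4BL over transcripts in place of genes, and 0.21 and 0.12 on 4AS and 4BL without the 5% most abundant members.

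The ratio of sums was 1.21, 1.15 and 1.19 as reported. It was 1.19 on 4AS and 1.16 on 4DL with both sums at 5 FPKM or more, 1.23, 1.17 and 1.22 with a mean of at least 1 FPKM, 1.26, 1.20 and 1.11 with no upper limit, and 1.14, 1.08 and 1.11 after median-of-ratios scaling. Quantile normalization put it below 1, at 0.988, 0.945 and 0.973; that step forces the distributions of both columns to be equal. It was 1.35, 1.18 and 1.21 over genes with 1 transcript, 1.17 on 4BL and 1.15 on 4DL over transcripts, and 1.23 on 4AS and 1.22 on 4DL without the 5% most abundant members.

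Counts moved by over 1.5 times mostly where fewer or more features were compared. With both sums at 5 FPKM or more, 43, 47 and 53 genes were higher by 2-fold or more, 16, 17 and 18 lower by 2-fold or more, and 214, 248 and 283 higher by any amount. Over genes with 1 transcript these counts were 20, 44 and 45, then 4, 15 and 15, then 70, 139 and 144. Over transcripts, 148 were at least 2-fold higher on 4AS, and 56 on 4AS and 107 on 4DL at least 2-fold lower. With the same genes, a pseudocount of 1 FPKM left 22 at least 2-fold lower on 4AS, in place of 36. The number of genes that held 50% of the gain was 99 with both sums at 5 FPKM or more, 62 with no upper limit and 35 over genes with 1 transcript, in place of 154. Every other value under these alternatives, 68 in all, kept its second decimal or, for a count, stayed within 1.5 times of the reported one. That limit is wide, and a count within it can change its reading. After quantile normalization 361 of 704 genes were higher on 4AS, 466 of 979 on 4BL and 576 of 1150 on 4DL, in place of 438, 567 and 684. On 4BL fewer than 50% of genes were then higher.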
